A study of Mus musculus with 6 samples.

Results

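The 39 Hox genes of the 4 mouse clusters were followed in RNA from spinal cords at E13.5, a mid-gestation stage when motor neurons are already born. Members were the rows of the count files whose symbol is Hoxa, Hoxb, Hoxc or Hoxd followed by a number, 39 of 55433 rows, and all 39 were among the 17711 genes with enough counts to be tested. The files hold whole spinal cords of 6 C57BL/6J embryos. The group labelled NFIAcKO has 3 libraries of genotype NFIA-ff, Nestin-cre, and the group labelled control has 3 of genotype NFIA-ff alone, so the NFIA-ff alleles were common to all 6. The Nestin-cre transgene drives recombination mainly in neural progenitors. Cre was present in the NFIAcKO embryos only, so an effect of Cre and an effect of recombination cannot be told apart. The comparison bears on dissection as well as on genotype, since the series was designed to study NFIA in motor neuron development and a Hox profile shows which levels of the cord a library holds.

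Hox genes encode homeodomain transcription factors that give cells their position along the head-to-tail axis. Within a cluster the order of the genes on the chromosome matches the order of their expression, with low paralog numbers active up into the hindbrain and high numbers near the tail. In the spinal cord this code sets the identity of motor neurons: members of paralog groups 4 to 8 act at neck and forelimb levels, group 9 at the trunk, groups 10 and 11 at hindlimb levels, and groups 12 and 13 at the tail end. Hox proteins bind DNA together with Pbx and Meis cofactors, and their clusters are held open or closed by Trithorax and Polycomb proteins.

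On GRCm38, the assembly that mm10 names, the 11 members of HoxA lay on the minus strand of chromosome 6. The 10 members of HoxB lay on the plus strand of chromosome 11 between 96194316 and 96368256. The 9 members of HoxC lay on the plus strand of chromosome 15 between 102921103 and 103036852, and the 9 of HoxD on the plus strand of chromosome 2 between 74668310 and 74765142. By the GENCODE M21 annotation, 16 of the 39 share exonic bases with another annotated gene and 23 share none. Counts of those 16 are uncertain, as no source used here gives the strand setting of the counting.

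Counts assigned to genes totalled 47388945 to 48947073 in the libraries labelled NFIAcKO and 43393053 to 51465763 in those labelled control. Nfia itself had 5144, 5016 and 5636 counts in the libraries labelled NFIAcKO, against 2641, 3110 and 3683 in those labelled control. A count over the whole gene does not test the deletion, but it does not bear out the label, so groups are called by their labels and every direction is relative to them. Replicate 2 of each group was the only library of its group with high Xist counts, 9316 in NFIAcKO and 17620 in control, against at most 3 in the other 4 libraries. The labels name no litters, so p-values measure the spread between these 6 embryos.

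Few Hox genes passed the test between the groups, which does not show that the others were unchanged. Hoxa3 and Hoxc8 were higher in the libraries labelled NFIAcKO, Hoxb13 was lower, and 36 members did not pass the test at an adjusted p under 0.05. The members called were 7.69% of 39, against 13.9% of all tested genes, of which 7.86% were higher and 6.08% lower. With a trend on gene length and GC content removed, the order was reversed, at 10.3% of members against 7.71% of all tested genes. Groups did not overlap for 5 members, or 12.8%: Hoxa3, Hoxa7 and Hoxc8 lay higher in every NFIAcKO library, and Hoxa13 and Hoxb13 lower. Over all tested genes that share was 33.4%. An unadjusted p under 0.05 was reached by 5 of 39 members, against 29.8% of all tested genes. In bulk tissue, fewer cells of a type and less RNA per cell cannot be told apart.

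Fold changes were small and mostly on the side of NFIAcKO. The log2 fold change was above 0 for 29 of 39 members, or 74.4%, against 48.9% of all tested genes, and under 0.5 in size for 36. Its median was 0.086 over the members and -0.0083 over all tested genes. The standard error (SE) of a member ran from 0.085 to 0.55, with a median of 0.13. By paralog group the median was 0.18 for groups 1 to 3 (7 of 8 above 0), 0.14 for groups 4 to 8 (12 of 15), 0.10 for groups 9 to 11 (9 of 10) and -0.24 for groups 12 and 13 (1 of 6). By cluster it was 0.18 in HoxA, 0.015 in HoxB, 0.25 in HoxC and 0.066 in HoxD. Under upper quartile scaling or library totals, 24 of 39 members lay above 0. These medians leaned on single libraries. Without control replicate 3 the median was 0.0039 for groups 4 to 8 and -0.021 for groups 12 and 13, without control replicate 2 it was -0.020 for groups 9 to 11, and without NFIAcKO replicate 2 only 22 of 39 members lay above 0.

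**Figure D1:**
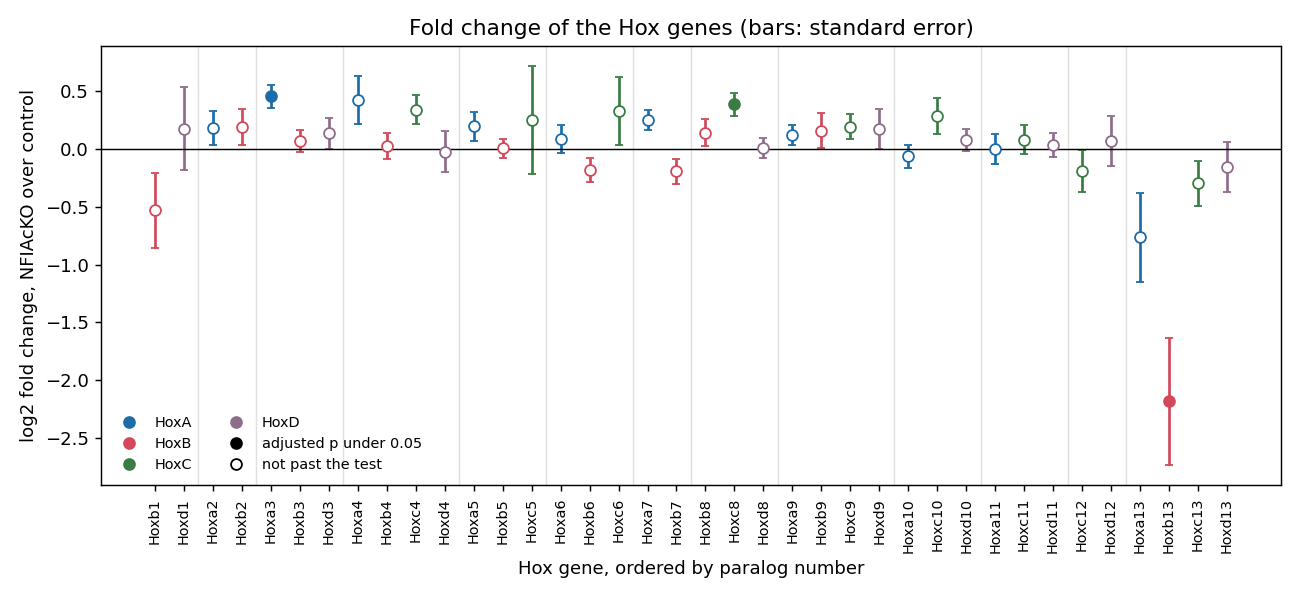
Log2 fold change of NFIAcKO over control (vertical axis) for Hox genes, ordered by paralog number along the horizontal axis; bars are the standard error, colours the 4 clusters, and filled points the genes past an adjusted p of 0.05. Filled points are Hoxa3 and Hoxc8 above 0 and Hoxb13 at -2.18; all 4 genes of paralog group 13 lie below 0.

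Hox genes are short: the median over members was 2472 bp of annotated exon, and over all genes tested 3976 bp. The comparison was therefore repeated with a trend of counts on length and GC content removed from each library. In that fit, 4 members were higher (Hoxa3, Hoxa5, Hoxa7 and Hoxc8) and none lower, 10.3% of 39. Over all genes it called 7.71%, of which 3.83% were higher and 3.88% lower. With the trend removed 11 of 39 members had an unadjusted p under 0.05, against 25.5% of all tested genes, and the median was 0.20 over the members and 0.0074 over all tested genes. In that fit the medians were 0.26 for groups 1 to 3, 0.32 for groups 4 to 8, 0.21 for groups 9 to 11 and -0.11 for groups 12 and 13. By cluster they were 0.34 in HoxA, 0.062 in HoxB, 0.34 in HoxC and 0.13 in HoxD.

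Levels differed from gene to gene by far more than between the groups. Per kb of annotated exon, Hoxb8 reached 397 CPM (counts scaled to library size) and Hoxb9 329.7 CPM over the 6 libraries, and these neighbours in HoxB gave 25.6% and 20.8% of all Hox CPM. Next on the same scale came Hoxc8 at 101, Hoxb6 at 80.6, Hoxc10 at 77.4, Hoxb7 at 73.2 and Hoxc9 at 72.4 CPM per kb. The 7 highest levels belonged to genes of groups 6 to 10, and levels were lower at both ends of the clusters. The lowest levels were 0.212 CPM per kb for Hoxa13 and 0.343 for Hoxb1, a hindbrain gene. Within paralog group 13 the level of Hoxc13 was 11.04 CPM per kb, above Hoxd13 at 0.936, Hoxb13 at 0.615 and Hoxa13.

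**Figure D2:**
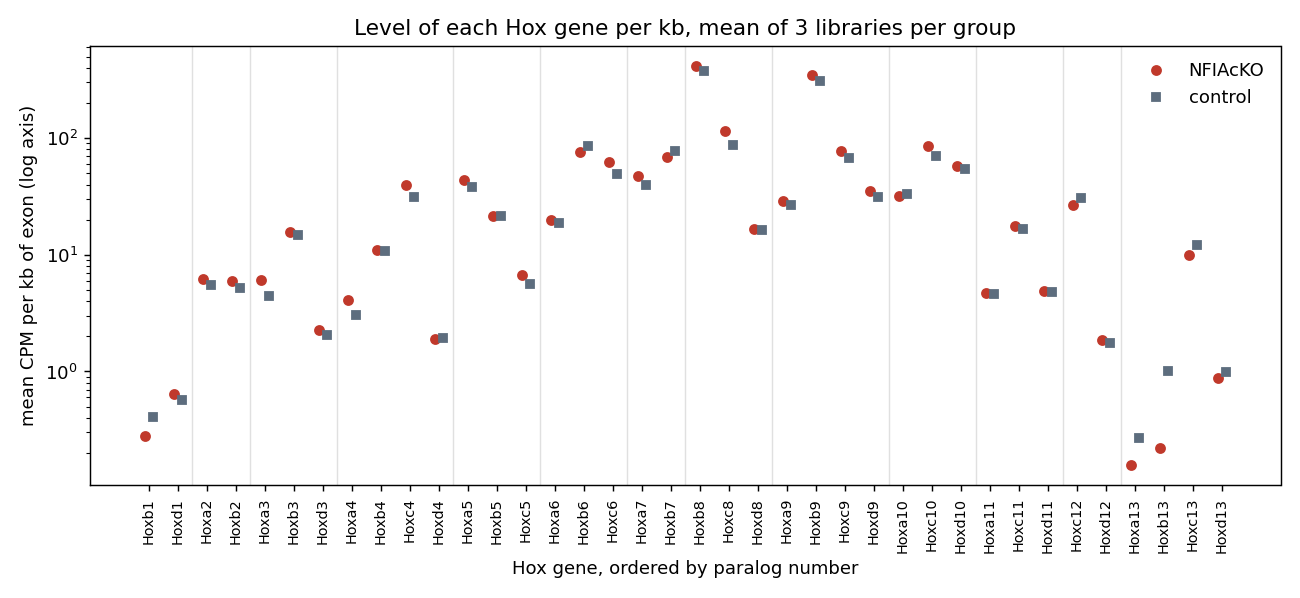
Mean CPM per kb of annotated exon (vertical log axis) of Hox genes, ordered by paralog number; red points are means of the 3 NFIAcKO libraries and grey squares of the 3 control libraries. Hoxb8 and Hoxb9 stand highest, Hoxa13 lowest, and for most genes the points of both groups lie close together, the widest gap being that of Hoxb13.

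Among paralogs 1 to 3, whose genes pattern the hindbrain and the upper neck, Hoxa3 was higher in NFIAcKO. In mice Hoxa3 is needed for the thymus, the parathyroid and parts of the throat. It had 34.9, 40.9 and 33.6 CPM in NFIAcKO and 25.8, 28.5 and 25.4 CPM in control. Every NFIAcKO library lay above every control library. The log2 fold change was 0.46 (SE 0.0999, edgeR adjusted p = 0.0117), and 0.35 with the length and GC trend removed (adjusted p = 0.0446). The call was lost when control replicate 1 (adjusted p = 0.0605) or NFIAcKO replicate 1 or 2 (0.0503 and 0.055) was left out. Hoxa3 (gene ENSMUSG00000079560.13, minus strand, at 52169062 to 52213336 of chromosome 6) shares up to 503 exonic bp with Hoxaas2 on the opposite strand and 482 bp with Gm28308 on the same strand. Hoxaas2 did not pass the test, with a log2 fold change of -0.056, and Gm28308 had no counts.

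The member of this class with the highest CPM was Hoxb3, which shapes hindbrain segments. It stood at 62.2, 75.4 and 61.8 CPM in NFIAcKO and 69.9, 61.2 and 58.97 CPM in control. The groups overlapped, with a log2 fold change of 0.07 (adjusted p = 0.674). Hoxb3 shares 2250 exonic bp with its antisense gene Hoxb3os, so its level is uncertain.

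No other gene of this class passed the test. Hoxb1, which gives the fourth hindbrain segment its identity, had 0.455 to 0.885 CPM in NFIAcKO and 0.774 to 1.097 CPM in control, with a log2 fold change of -0.53 (adjusted p = 0.297). Hoxd1, which in mice shapes the wiring of pain-sensing neurons, had 1.08 to 1.38 CPM in NFIAcKO and 0.4099 to 1.39 CPM in control, where replicate 1 alone set the low end. Hoxa2, which patterns the face and the hindbrain, had 8.78 to 12.3 CPM in NFIAcKO and 8.89 to 11.1 CPM in control, and Hoxb2 17.2 to 26.9 CPM in NFIAcKO and 16.7 to 20.2 CPM in control. Hoxd3, which patterns the first neck vertebrae, had 8.53 to 10.8 CPM in NFIAcKO and 7.79 to 9.57 CPM in control. Summed over all 8 genes, CPM was 136.4, 169.8 and 139.8 in NFIAcKO and 135.8, 129 and 127 in control. The groups did not overlap in this sum, although NFIAcKO replicate 1 and control replicate 1 differed by less than 1 CPM.

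Among paralogs 4 to 8, Hoxc8 was higher in NFIAcKO. Hoxc8 acts in motor neurons of the lower forelimb level, where in chick it turns on the transcription factor Etv4 in motor pools. It had 335, 349 and 289 CPM in NFIAcKO and 278, 228 and 238 CPM in control. The lowest NFIAcKO library, replicate 3, lay just above the highest control library, replicate 1. The log2 fold change was 0.39 (SE 0.0968, adjusted p = 0.019), and 0.53 with the trend removed (adjusted p = 0.0167). Leaving out NFIAcKO replicate 1 or 2 ended the call (adjusted p = 0.0991 and 0.0875). Etv4 itself, at 15.1, 12.9 and 11.5 CPM in NFIAcKO and 12.3, 12.99 and 15.5 CPM in control, did not pass the test (adjusted p = 0.862). Hoxc8 (gene ENSMUSG00000001657.7, plus strand, at 102990607 to 102994111 of chromosome 15) shares no exonic base with another annotated gene and lies inside the long intron of a Hoxc5 transcript.

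Hoxb8 was the member with the highest CPM of all. It is known in mice for its part in the spinal dorsal horn and in microglia, and mutants overgroom. It stood at 990.0, 1262 and 1038 CPM in NFIAcKO and 1171, 892 and 917 CPM in control. The groups overlapped, NFIAcKO replicate 2 being highest and control replicate 2 lowest (log2 fold change 0.14, SE 0.12, adjusted p = 0.459).

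Hoxa7 and Hoxc4 came close to the threshold. Hoxa7, which with Hoxb7 patterns trunk vertebrae, had 122, 151 and 133 CPM in NFIAcKO and 117, 115 and 109 CPM in control. All 3 NFIAcKO libraries lay above all 3 control libraries. The log2 fold change was 0.25, with an SE of 0.0868 and an adjusted p of 0.064. It passed with DESeq2 (adjusted p = 0.0318) and with the trend removed (0.0229), and it shares 586 exonic bp with the antisense gene Hoxaas3. Hoxc4, a neck-level gene, had 78.8, 115 and 109 CPM in NFIAcKO and 77.1, 87.9 and 74.4 CPM in control. NFIAcKO replicates 2 and 3 lay above every control library and replicate 1 did not (log2 fold change 0.34, SE 0.12, adjusted p = 0.0881). DESeq2 called Hoxc4 as well (adjusted p = 0.0314).

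The other members of groups 4 to 8 did not pass. Hoxa5, which with Hoxc5 keeps the phrenic motor neurons that drive the diaphragm, had 68.9 to 89.5 CPM in NFIAcKO and 61.6 to 86.2 CPM in control. Its log2 fold change was 0.20, and 0.39 with the trend removed, where it was called (adjusted p = 0.0446). Hoxa6, which acts with Hoxc6 in forelimb motor neurons, had 16.1 to 18.99 CPM in NFIAcKO and 14.7 to 19.2 CPM in control. In the HoxB cluster, Hoxb6 had 138 to 166 CPM in NFIAcKO and 144 to 185 CPM in control, and Hoxb7 98 to 118 CPM in NFIAcKO and 101 to 132 CPM in control. Both had fold changes below 0, at -0.18 and -0.19, and both were called lower when control replicate 3 was left out (adjusted p = 0.0126 and 0.00728). With the trend removed the log2 fold change was -0.045 for Hoxb6 and 0.027 for Hoxb7 (adjusted p = 0.796 and 0.878).

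Hoxb5 and Hoxd8 had the smallest within-group spread of the class. Hoxb5, which takes part in the development of the enteric nervous system, had 55.8 to 64.4 CPM in NFIAcKO and 56.5 to 64.2 CPM in control, a log2 fold change of 0.0045 with an SE of 0.0855. Hoxd8 had 42.9 to 50.4 CPM in NFIAcKO and 43.2 to 46.4 CPM in control, with 0.0074 and an SE of 0.0884. The remaining group 4 genes also overlapped between groups. Hoxa4 had 4.77 to 7.86 CPM in NFIAcKO and 4.11 to 6.42 CPM in control, Hoxb4 26.4 to 32.2 CPM in NFIAcKO and 23.9 to 30.3 CPM in control, and Hoxd4 4.83 to 6.12 CPM in NFIAcKO and 4.798 to 7.22 CPM in control.

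**Figure D3:**
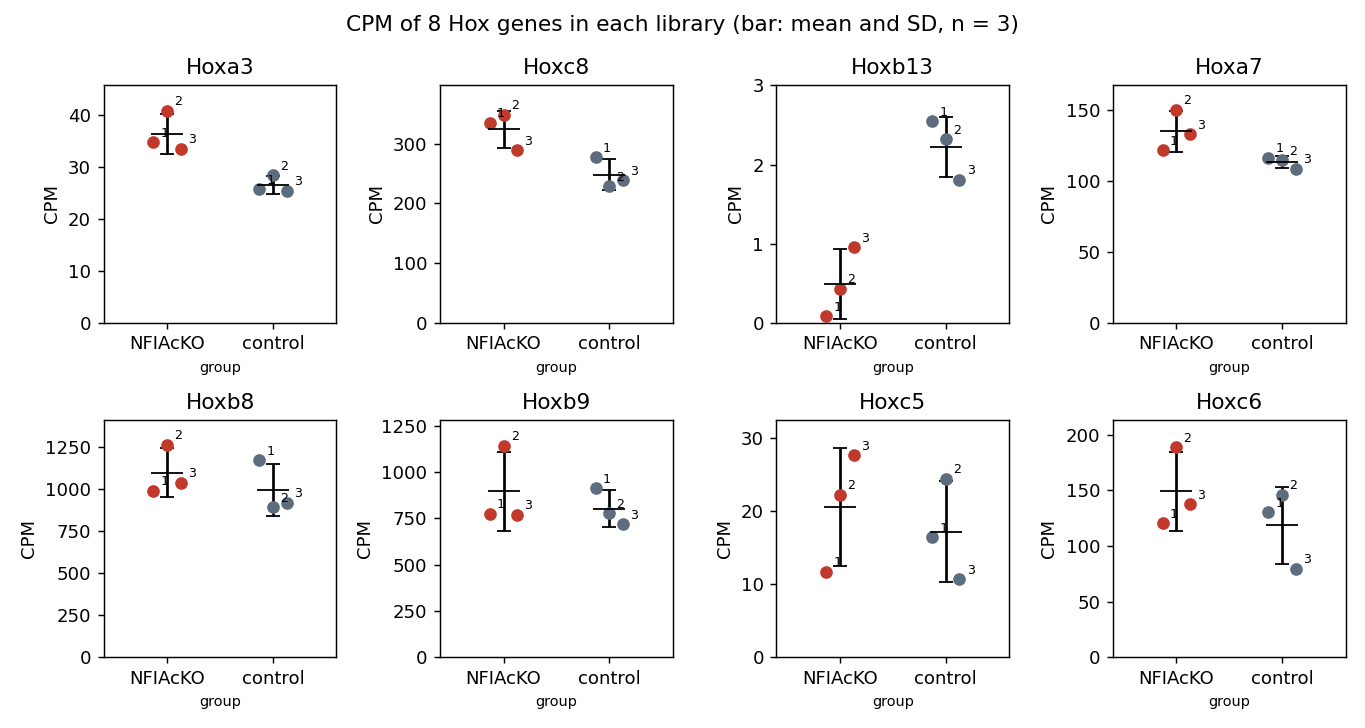
CPM (vertical axes, starting at 0) of 8 Hox genes in each library; numbers are replicates, and bars the mean and SD of 3 libraries per group. The groups do not overlap for Hoxa3, Hoxc8, Hoxb13 and Hoxa7, and overlap for Hoxb8, Hoxb9, Hoxc5 and Hoxc6.

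Paralogs 9 to 11 showed no call in either direction. Hoxb9, the member of highest CPM from group 9 on, had 776, 1142 and 769 CPM in NFIAcKO and 911, 777 and 718 CPM in control. NFIAcKO replicate 2 stood above the other 5 libraries, which overlapped (log2 fold change 0.16, SE 0.15, adjusted p = 0.519). Hoxc9, which gives motor neurons a trunk identity and represses forelimb-level Hox genes, had 161 to 204 CPM in NFIAcKO and 140.4 to 177 CPM in control. Hoxa9 had 153 to 173 CPM in NFIAcKO and 133 to 158 CPM in control, and Hoxd9 63.7 to 82.04 CPM in NFIAcKO and 50.3 to 81.2 CPM in control. All 4 genes of group 9 had fold changes above 0, from 0.12 to 0.19, with adjusted p values from 0.256 to 0.556.

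The group 10 genes, which specify hindlimb motor neurons, gave log2 fold changes of -0.063 for Hoxa10, 0.29 for Hoxc10 and 0.08 for Hoxd10. Hoxc10 had 176, 169.9 and 141 CPM in NFIAcKO and 144, 99.98 and 156 CPM in control. Its lowest value was that of control replicate 2, and the remaining libraries overlapped (SE 0.15, adjusted p = 0.246). Hoxa10 had 91.8 to 112 CPM in NFIAcKO and 94.8 to 118 CPM in control, and Hoxd10 102 to 109 CPM in NFIAcKO and 84.7 to 109.7 CPM in control. In group 11, which patterns the sacral region, the limbs and the kidney, fold changes were within 0.081 of 0. Hoxa11 had 9.68 to 11.8 CPM in NFIAcKO and 9.38 to 12.1 CPM in control, Hoxc11 32.4 to 37.8 CPM in NFIAcKO and 27.4 to 40.5 CPM in control, and Hoxd11 19.6 to 21.6 CPM in NFIAcKO and 18.6 to 22.3 CPM in control.

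At the tail end, Hoxb13 was lower in NFIAcKO. In mice Hoxb13 limits the growth of the tail bud and the caudal spinal cord. It had 4, 20 and 45 counts in NFIAcKO, against 112, 122 and 84 counts in control, or 0.0827, 0.432 and 0.953 CPM in NFIAcKO against 2.55, 2.32 and 1.81 CPM in control. All 3 NFIAcKO libraries lay below all 3 control libraries, but NFIAcKO replicate 1 and replicate 3 were themselves far apart. The log2 fold change was -2.18 (SE 0.55, adjusted p = 0.0324). The call was lost when control replicate 1, 2 or 3 (adjusted p = 0.113, 0.182 and 0.0648) or NFIAcKO replicate 2 (0.126) was left out. Entering Xist as a covariate or removing the trend also ended it (adjusted p = 0.0723 and 0.0717), with log2 fold changes of -2.18 and -2.05. DESeq2 gave an unadjusted p of 0.00915 and no adjusted p. Hoxb13 (gene ENSMUSG00000049604.3, plus strand, at 96194316 to 96197447 of chromosome 11) shares no exonic base with another gene.

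The other 5 genes of groups 12 and 13 did not pass. Hoxa13, which with Hoxd13 forms the digits and the urogenital tract, had 10, 23 and 22 counts in NFIAcKO and 29, 39 and 27 counts in control. Its groups did not overlap in CPM (log2 fold change -0.76, SE 0.39, adjusted p = 0.202). Hoxc13, a gene of hair and nail formation that is also active in the tail, had 22.4 to 27.8 CPM in NFIAcKO and 22.6 to 40.3 CPM in control. Hoxd13 had 1.84 to 2.63 CPM in NFIAcKO and 2.13 to 2.93 CPM in control, Hoxc12 25.8 to 29.8 CPM in NFIAcKO and 23.4 to 42.2 CPM in control, and Hoxd12 3.57 to 5.25 CPM in NFIAcKO and 3.23 to 5.94 CPM in control. Control replicate 3 was the highest library for Hoxc12, Hoxd12, Hoxc13 and Hoxd13. All 4 genes of group 13 had fold changes below 0, from -0.16 for Hoxd13 to -2.18 for Hoxb13.

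A marker of the tail bud was lower beside Hoxb13. Wnt3a, a Wnt ligand of the tail bud and of the dorsal midline of the neural tube, had 10, 22 and 14 counts in NFIAcKO and 32, 62 and 40 counts in control (log2 fold change -1.50, SE 0.38, adjusted p = 0.0204). T, the mesoderm factor that defines the tail bud, had 10, 18 and 21 counts in NFIAcKO and 20, 47 and 23 in control and did not pass (adjusted p = 0.195). Tbx6, the other tail bud marker tested, did not pass either (log2 fold change -0.30, adjusted p = 0.599). Of the 6 tail bud markers, 3 were tested, 1 was lower and none higher. Over all tested genes 6.08% were lower and 7.86% higher. The summed CPM of the 6 markers was 0.992 to 1.5 in NFIAcKO and 1.78 to 2.81 in control. Cdx2 and Msgn1 had no counts in any control library and at most 2 and 6 in NFIAcKO. The part of the tail tip in the Hoxb13 difference was not tested.

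A number carried in the deposited file names was shared by replicates 1 and 2 of both groups, and another by replicate 3 of both, and the labels do not say what it stands for. The log2 ratio of mean CPM of Hoxa3 was 0.48 over the 2 libraries per group that shared the first number and 0.40 in the pair that shared the other. For Hoxc8 these were 0.43 and 0.28, and for Hoxb13 -3.24 and -0.92. All 3 kept their direction within both numbers.

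On the scale of log2(CPM + 0.5), spread between libraries of a group was widest in Hoxc5, with a within-group SD of 0.60. The added 0.5 narrows the spread of genes of low CPM, so the ranking holds for this scale only. It had 11.8, 22.3 and 27.7 CPM in NFIAcKO and 16.5, 24.5 and 10.7 CPM in control. Low and high libraries occurred in both groups, and the log2 ratio was -0.27 within the first file-name number and 1.37 within the other. Hoxc5 shares 166 exonic bp with Hoxc10 and its annotated transcripts span several other HoxC genes. Hoxb13 had an SD of 0.49 and Hoxd1 of 0.44 on this scale. Both are low in CPM, and Hoxb13 ran from 0.0827 to 0.953 CPM within NFIAcKO. Hoxc6, a marker of forelimb motor neurons, had an SD of 0.40 and stood at 121, 188 and 138 CPM in NFIAcKO, against 130.1, 146 and 79.6 CPM in control. Control replicate 3 was the lowest library for both Hoxc5 and Hoxc6.

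**Figure D4:**
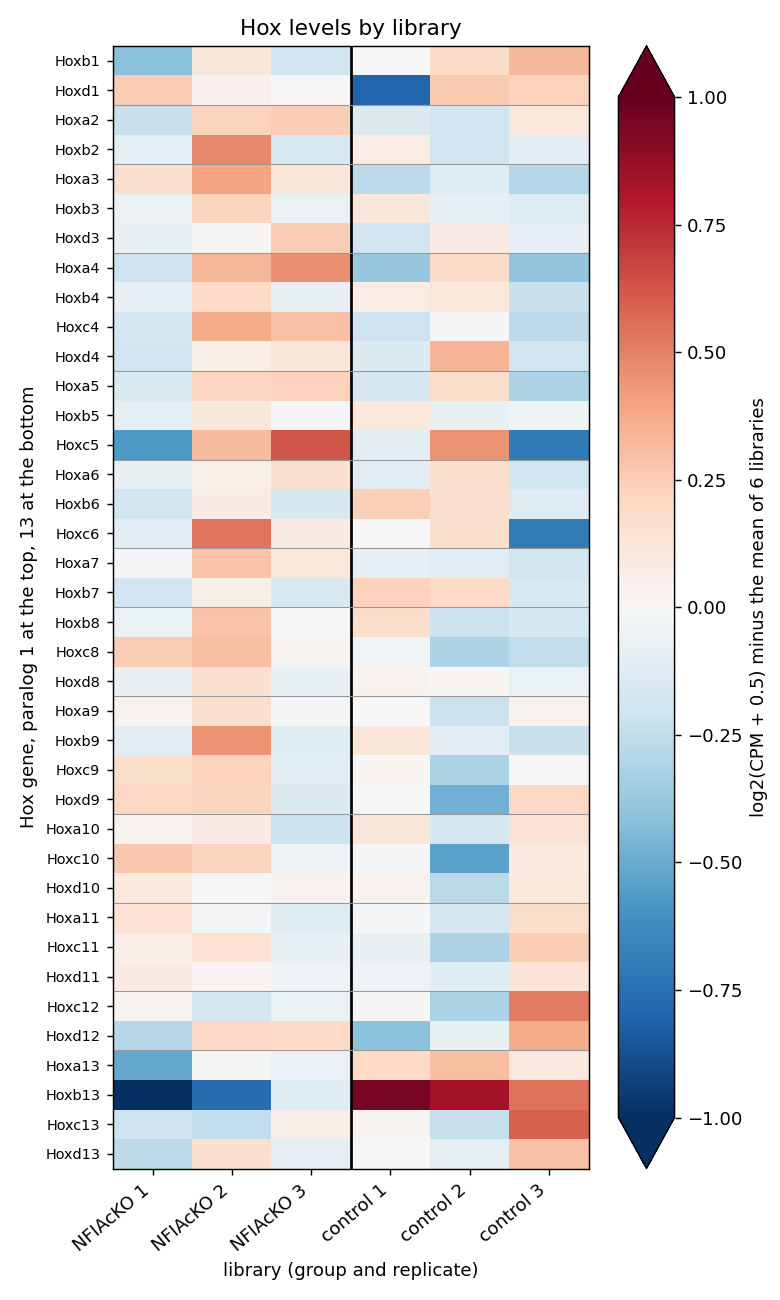
Deviation of log2(CPM + 0.5) from the mean of the 6 libraries (colour) for Hox genes, from paralog group 1 at the top to 13 at the bottom, with the 3 NFIAcKO libraries left of the line and the 3 control libraries right of it. Control replicate 3 is low for Hoxc5 and Hoxc6 and high for Hoxc12, Hoxc13 and Hoxd13, control replicate 2 is low for Hoxc10 and Hoxd9, and Hoxb13 is low in NFIAcKO and high in control.

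The balance of caudal to rostral Hox expression was compared as a check of the level of dissection. It was taken as the log2 ratio of the summed CPM of paralogs 9 to 13 to that of paralogs 4 to 8. It was -0.29, -0.32 and -0.47 in NFIAcKO and -0.37, -0.46 and -0.16 in control. By this ratio control replicate 3 was the most caudal library and NFIAcKO replicate 3 and control replicate 2 the most rostral, so the groups overlapped. Means were -0.36 ± 0.096 in NFIAcKO and -0.33 ± 0.15 in control (SD, n = 3 each), a difference of -0.025. That difference was smaller than the SD of either group. Hoxb8 and Hoxb9 weigh heavily in this ratio, with 25.6% and 20.8% of all Hox CPM. With paralogs 8 and 9 left out it was -0.516, -0.935 and -0.884 in NFIAcKO and -0.781, -1.18 and -0.311 in control. The groups overlapped there too, with a difference of -0.021.

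The mean paralog number weighted by CPM was 8.03, 7.95 and 7.90 in NFIAcKO and 7.997, 7.85 and 8.10 in control, which overlapped. With every gene weighted equally, the balance was -1.002, -1.21 and -1.19 in NFIAcKO and -0.95, -1.25 and -0.55 in control. The difference was -0.22, larger than the SD of NFIAcKO (0.115) and smaller than that of control (0.352), and the groups overlapped. Control replicate 3 again lay apart on the caudal side. Within HoxC alone the difference was -0.19, within HoxA -0.18, within HoxD 0.11 and within HoxB 0.066, and groups overlapped in each cluster. The order of libraries differed within HoxB alone, where NFIAcKO replicate 2 was most caudal at -0.524. Control replicate 2 stood there at -0.721 and control replicate 3 at -0.79. Control replicate 3 was extreme in the raw HoxC parts. Hoxc4 to Hoxc6 summed to 211, 326 and 274 CPM in NFIAcKO and 224, 258 and 165 CPM in control. Hoxc10 to Hoxc13 summed to 264, 256 and 229.5 CPM in NFIAcKO and 233, 173 and 279 CPM in control.

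Groups 12 and 13 were also read on their own. Their mean log2 deviation from the 6-library mean was -0.45, -0.14 and -0.015 in NFIAcKO and 0.13, 0.07 and 0.40 in control, without overlap. That rested on Hoxb13: with it left out, a choice made after seeing the data, the mean was -0.25, -0.013 and 0.0068 in NFIAcKO and -0.036, -0.083 and 0.37 in control, and the groups overlapped. Their summed CPM, which the higher-expressed Hoxc12 and Hoxc13 dominate, did overlap, at 58.4, 56.99 and 64.4 in NFIAcKO and 65.1, 55.4 and 93.7 in control. Groups 9 to 11 overlapped in the same measure, at 0.10, 0.15 and -0.086 in NFIAcKO and 0.013, -0.27 and 0.091 in control. These are scores over chosen members and carry no p-value.

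**Figure D5:**
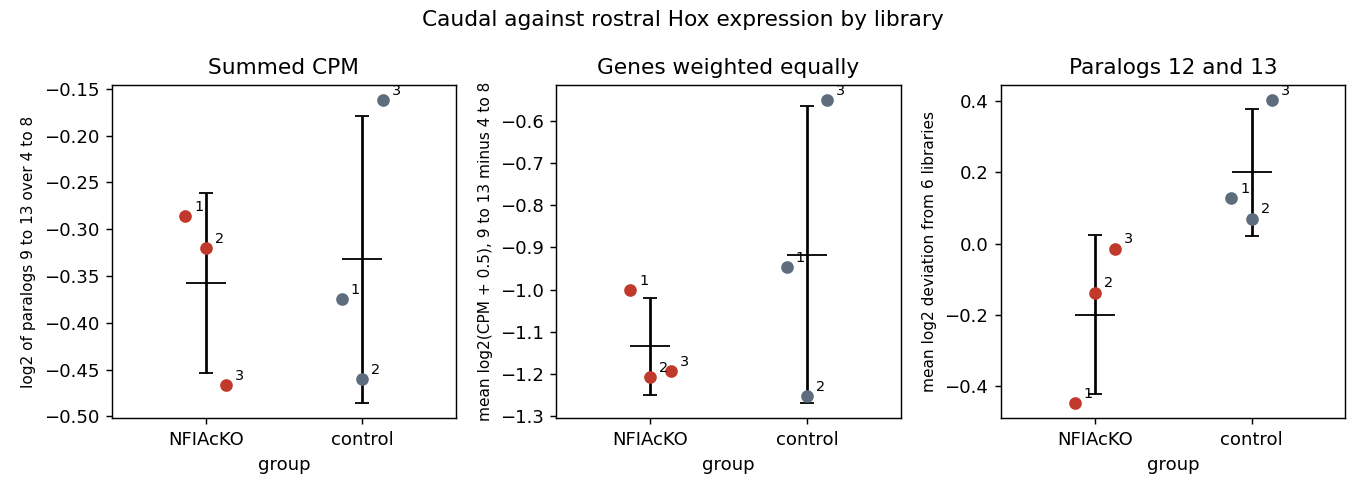
Caudal against rostral Hox expression in each library: log2 of summed CPM of paralogs 9 to 13 over 4 to 8 (left), the same with genes weighted equally (middle), and the mean log2 deviation of paralogs 12 and 13 (right); numbers are replicates, and bars mean and SD of 3 libraries. The groups overlap on the left and in the middle, where control replicate 3 is the most caudal library, and do not overlap on the right, where Hoxb13 is included.

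The clusters also hold microRNA genes that are known to bind Hox messages, and their sequences are shown because 9 of the 39 members, Hoxc8 and Hoxa7 among them, carry matches to the miR-196 family. From RefSeq (GRCm38.p6), miR-196 genes lie in HoxA, HoxB and HoxC next to a group 9 gene, and miR-10 genes in HoxB and HoxD next to a group 4 gene. Capitals mark the seed, bases 2 to 8 from the 5′ end, which is the same within each family.
mmu-miR-196a-5p: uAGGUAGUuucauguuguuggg
mmu-miR-196b-5p: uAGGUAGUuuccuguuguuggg
mmu-miR-10a-5p: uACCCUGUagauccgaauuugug
mmu-miR-10b-5p: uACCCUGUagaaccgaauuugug

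In the longest annotated 3′ UTR of each gene (GENCODE M21), the miR-196 seed match ACTACCT on the sense strand occurred in 9 of 39 Hox genes, or 23.1%, and in 7.0% of 14628 tested genes. The median UTR was 966 bases in Hox genes and 1199 in all. Of the 9, 6 had a fold change above 0, against 29 of all 39 members. Among the same 9, 1 rose (Hoxc8) and none fell, where 7.86% of all tested genes were higher and 6.08% lower. Their median was 0.20, against 0.080 in the 30 without a match. The miR-10 match ACAGGGT occurred in 4 Hox genes, or 10.3%, and in 14.5% of the 14628. Hoxa3, Hoxb3 and Hoxd1 were among them, and Hoxa3 rose. Mature microRNAs are not measured by an mRNA library, and a match is a description of the sequence.

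The sites of the 2 higher genes are shown 5′ to 3′ with the seed match in capitals, together with the Hoxb8 window that pairs best with miR-196a-5p. In the Hoxb8 window capitals mark Watson-Crick pairs and the lower-case letter a G:U pair.
Hoxa3 (chromosome 6), miR-10: ctctttgataagaaACAGGGTa
Hoxc8 (chromosome 15), miR-196, upstream site: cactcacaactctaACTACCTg
Hoxc8 (chromosome 15), miR-196, downstream site: taaatctttaacatACTACCTa
Hoxb8 (chromosome 11), miR-196: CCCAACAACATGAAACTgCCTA

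The Hoxb8 window pairs with all 22 bases of miR-196a-5p, 21 of them as Watson-Crick pairs and 1 as G:U. Among 14598 tested genes with a UTR long enough, 2 reached 22 paired bases. Hoxb8 lacks the exact seed match because the G:U pair falls in the seed. Hoxa7 held 4 seed matches, the most of any Hox gene, and its level stood at 122 to 151 CPM in NFIAcKO and 109 to 117 CPM in control.

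Promoters were searched for the letters bound by nuclear factor I proteins, the family of NFIA. RefSeq promoters (250 bases before to 50 after the start) were at hand for 22 Hox genes, 24 windows in all. The palindrome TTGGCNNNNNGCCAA occurred in none of the 24 and in 0.037% of 32851 promoters on both strands. Its arm, TTGGC or GCCAA, occurred in 16 of 24 Hox windows and in 46.7% of all. Hoxd11 entered through separate windows, each with an arm. Among the called members, the Hoxa3 window held no arm, and no window was at hand for Hoxc8 or Hoxb13. The Hoxb8 promoter is shown as that of the most abundant member, over the 250 bases before the start, with the arm in capitals.
Hoxb8, GRCm38.p6 chr11:96281655-96281904, plus strand: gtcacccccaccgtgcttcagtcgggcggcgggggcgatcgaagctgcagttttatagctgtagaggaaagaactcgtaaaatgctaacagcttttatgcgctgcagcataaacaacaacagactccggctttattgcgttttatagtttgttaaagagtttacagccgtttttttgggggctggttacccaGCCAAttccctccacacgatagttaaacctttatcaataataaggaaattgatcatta

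Some partners of the Hox proteins were higher. Of 8 cofactor genes, 2 were higher in NFIAcKO and none lower, with a median log2 fold change of 0.20, against 7.86% higher, 6.08% lower and a median of -0.0083 over all tested genes. Meis2, a homeodomain partner of Hox proteins, had 461, 506 and 482 CPM in NFIAcKO and 343, 304 and 389 CPM in control (log2 fold change 0.48, SE 0.0952, adjusted p = 0.00784). Pbx3, a homeodomain partner that binds DNA with Hox proteins, had 307, 317 and 306.5 CPM in NFIAcKO and 259.8, 229.7 and 263 CPM in control (0.31, SE 0.0814, adjusted p = 0.0246). Groups did not overlap for either gene, and both kept the call with the trend removed, at 0.31 for Meis2 and 0.36 for Pbx3 (adjusted p = 0.0344 and 0.0234). Meis1, Meis3, Pbx2, Pbx4, Pknox1 and Pknox2 did not pass.

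Of 36 genes that activate or repress Hox clusters, 32 were tested, 5 were higher and none lower, against 7.86% higher and 6.08% lower over all tested genes, with a median of 0.12. Kmt2a, the Trithorax methyltransferase that keeps Hox genes on, had 117, 107 and 133 CPM in NFIAcKO and 67.5, 77.7 and 75.2 CPM in control (log2 fold change 0.70, SE 0.0918, adjusted p = 0.00249). All NFIAcKO libraries lay above all control libraries. Bptf, a chromatin remodeller that reads the mark Kmt2a writes, was higher by 0.60 (adjusted p = 0.00438), Kdm6b, which removes the Polycomb mark, by 0.54 (0.00572), the acetyltransferase Kat6a by 0.54 (0.00458), and the Polycomb partner Jarid2 by 0.31 (0.0429). With the trend removed the log2 fold changes were smaller, at 0.37 for Kmt2a, 0.32 for Bptf, 0.34 for Kdm6b, 0.37 for Kat6a and 0.12 for Jarid2. Jarid2 lost its call there (adjusted p = 0.394) and the other 4 kept it, in a fit that called 3.83% of all tested genes higher. The Polycomb core genes Ezh2, Eed and Suz12 did not pass.

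Other genes inside the clusters showed no call. Of 46 such rows, antisense and microRNA genes among them, 25 were tested, with a median log2 fold change of -0.14. An unadjusted p under 0.05 was reached by 3 of the 25, against 29.8% of all tested genes. Hoxb5os, an antisense gene of HoxB, had 18.2, 22.5 and 17.8 CPM in NFIAcKO and 27.99, 30.4 and 19.4 CPM in control (adjusted p = 0.0874). Hotair, a long non-coding RNA between Hoxc11 and Hoxc12, had 5.58 to 8.77 CPM in NFIAcKO and 7.17 to 8.54 CPM in control (-0.14, adjusted p = 0.596). Of 12 genes listed as flanking the clusters, 9 were tested and 2 were lower, against 6.08% of all tested genes, with a median of -0.14. Hotair, which lies inside HoxC, was in this list too, and the median of both lists is its value. Mtx2, a mitochondrial import gene beside HoxD, had 68.02, 69.2 and 69.6 CPM in NFIAcKO and 91.5, 101 and 76.2 CPM in control (-0.38, adjusted p = 0.0194). Skap1, an adaptor gene beside HoxB, was lower (log2 fold change -0.70, adjusted p = 0.0493), though its groups overlapped, and with the trend removed it stood at -0.77 with an adjusted p of 0.0509.

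Several genes of a list drawn up for spinal levels outside the clusters were higher. What they say about the level of dissection was not tested. Of 14 listed, 11 were tested, 5 were higher and none lower, against 7.86% higher and 6.08% lower over all tested genes, with a median of 0.25. Aldh1a2, Etv4, Pou3f1, Lin28a, Tbx4 and Runx1 did not pass, and Gata4, Tbx5 and Pitx1 had too few counts to be tested. Foxp1, the Hox accessory factor of limb motor neurons, had 155, 158 and 151 CPM in NFIAcKO and 98.6, 94.3 and 119 CPM in control (log2 fold change 0.58, SE 0.09, adjusted p = 0.00438). Groups did not overlap. Nos1, an enzyme of preganglionic neurons of the trunk, was higher by 0.59 (adjusted p = 0.00955), Nr2f2 by 0.43 (0.0128), Sall1 by 0.42 (0.00797) and Tshz3 by 0.29 (0.0456). With the trend removed Foxp1, Nr2f2 and Sall1 kept their calls, at 0.35, 0.31 and 0.37. Nos1 and Tshz3 did not, at 0.33 and 0.24 (adjusted p = 0.0797 and 0.0835), while Aldh1a2, an enzyme of retinoic acid synthesis in limb motor neurons, gained a call there (log2 fold change 0.28, adjusted p = 0.0464).

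Markers of other tissues were also summed. No reference level of any tissue was used, so the sums set no bound on what else the cords held. The 9 spinal cord markers were all tested and present, at 2700 to 3100 summed CPM in NFIAcKO and 2560 to 2840 in control, with Pax2 higher (0.42, adjusted p = 0.0108). Of 8 markers of brain rostral to the cord, 4 were tested, and Egr2 had no counts in any library. Otx2 had 8, 6 and 2 counts in NFIAcKO and none in control, and Barhl1, which dorsal cord interneurons also express, was higher (0.40, adjusted p = 0.0311). The 8 summed to 30.9 to 37.1 CPM in NFIAcKO and 24.7 to 28.6 CPM in control, nearly all of it Barhl1 and Phox2a. Dorsal root ganglion markers (8 of 8 tested) summed to 92.8 to 111 CPM in NFIAcKO and 104 to 127 CPM in control, with a median log2 fold change of -0.94 and no call.

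The remaining marker lists gave no call either. Sclerotome and cartilage markers (4 of 7 tested) summed to 146 to 148 CPM in NFIAcKO and 93.7 to 145 CPM in control, without overlap. Most of that sum was Col2a1, whose groups overlapped, at 126.6 to 134.3 CPM in NFIAcKO and 82.2 to 131.7 CPM in control. Meningeal markers (6 of 6) summed to 743 to 1050 CPM in NFIAcKO and 655 to 811 CPM in control. Muscle markers (5 of 6) summed to 4.25 to 8.13 CPM in NFIAcKO and 3.73 to 7.42 CPM in control, and limb mesenchyme markers (4 of 6) to 35.6 to 39.9 CPM in NFIAcKO and 35.2 to 46.7 CPM in control. Limb mesenchyme and sclerotome express posterior Hox genes too, and their part in the Hox levels was not tested.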

How the data were processed

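Per the labels' protocols, RNA was extracted with RNeasy and libraries were built from mRNA with a stranded Illumina kit. The submitters' processing notes list mm10, STAR 2.6.1a, HTSeq and DESeq2, with no step assigned to each. Each library's deposited file holds whole-number counts for gene symbols, which the authors did not normalize. The 5 summary lines of each file, 16.9 to 19.4% of its total, entered neither library sizes nor tests.

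All 55433 rows entered edgeR 4.0.16 (R 4.3.3), with filterByExpr, TMM scaling and the robust quasi-likelihood F test of 3 NFIAcKO against 3 control libraries. P-values were adjusted by Benjamini-Hochberg over the 17711 genes kept, at a threshold of 0.05, and adjusted p values come from edgeR where no other tool is named. SE is the size of the log2 fold change divided by the square root of F, and CPM are on TMM-scaled library sizes. Alternatives were DESeq2 1.42.0, limma-voom (limma 3.58.1), other scalings and filters, blocks, Xist as a covariate, each library left out, and a spline trend (5 degrees of freedom) on exonic length and GC content as an offset, for which 98.7% of tested genes had values. The main edgeR fit was run on simulated counts with known fold changes, and the alternatives, scores and sequence searches were not.

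Counting error allows up to 3 counts, or 0.0583 to 0.0691 CPM on library totals, where a count is 0. Libraries of a group differed by more than sampling noise (chi-square per degree of freedom 11.9 to 50.2), and each of the 6 was taken as its own sample. The printed test has no replicate block, since no label says that the replicate numbers in the titles pair the libraries. Deviations from group means correlated between same-numbered libraries at 0.148, 0.136 and 0.114 over genes. Same-numbered libraries also matched in high or low Xist counts and in the file-name number, so these correlations do not establish pairing. The fit with the number as a block is given as an alternative. The members, the gene lists and the tests were chosen with earlier results of these data known. Hox genes past the test and the most abundant member of each paralog class are given library by library. Hoxa7, Hoxc4, Hoxc5, Hoxc6, Hoxc10 and Hoxa13 were added after their values were seen. Some genes of the clusters and lists are not reported here.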

Additional observations from a re-analysis of the deposited data

How the results depend on the processing

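Over the alternatives run, Hoxa3, Hoxc8 and Hoxb13 kept their direction in every one that gave a value. The counts of Hox genes called higher and lower were 4 and 0 with the length and GC trend removed and with Xist as a covariate. They were 5 and 1 with no filter on low counts. DESeq2 also gave 4 and 0, but it gave no adjusted p for Hoxb13, so it holds no verdict on that gene. With the replicate block they were 2 and 1, from 1353 higher and 1119 lower over all genes, and no member gained or lost its call. Leaving out 1 library gave 0 to 3 Hox genes higher and 0 to 2 lower, and over all genes 282 to 2703 higher and 139 to 2466 lower. Hox calls fell to 0 in both directions without NFIAcKO replicate 2, where Hoxa3 had an adjusted p of 0.055, Hoxc8 of 0.0875 and Hoxb13 of 0.126. Without control replicate 3, Hoxb6 and Hoxb7 were among the members that gained calls. Over all genes 901 were higher and 1655 lower with library totals, and 678 and 688 with the trend removed. The difference in caudal to rostral balance, -0.025, was -0.217 with members weighted equally, -0.178 in HoxA alone, -0.19 in HoxC alone and 0.114 in HoxD alone, and -0.089 to 0.06 with 1 library left out. The causes were not tested.

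Members near 0 changed sign, none of them called. The log2 fold change is given for each. With upper quartile scaling it was -0.015 for Hoxb4, -0.035 for Hoxb5, -0.033 for Hoxd8, -0.035 for Hoxa11 and -0.006 for Hoxd11. With library totals it was -0.031 for Hoxb4, -0.051 for Hoxb5, -0.049 for Hoxd8, -0.051 for Hoxa11 and -0.023 for Hoxd11. With Xist as a covariate it was 0.01 for Hoxd4. With the length and GC trend removed it was 0.047 for Hoxd4 and 0.027 for Hoxb7. With a filter of 1 CPM in 3 libraries it was -0.007 for Hoxb5, -0.004 for Hoxd8 and -0.007 for Hoxa11. Leaving out 1 library turned the sign of further uncalled members, with log2 fold changes over the 6 such fits of Hoxd1 (-0.202 to 0.422), Hoxb2 (-0.041 to 0.292), Hoxb3 (-0.027 to 0.139), Hoxb4 (-0.078 to 0.08), Hoxd4 (-0.135 to 0.181), Hoxb5 (-0.051 to 0.056), Hoxc5 (-0.034 to 0.591), Hoxd8 (-0.07 to 0.049), Hoxb9 (-0.051 to 0.256), Hoxd9 (-0.009 to 0.326), Hoxa10 (-0.165 to 0.01), Hoxd10 (-0.033 to 0.151), Hoxa11 (-0.089 to 0.1), Hoxc11 (-0.054 to 0.237), Hoxd11 (-0.03 to 0.107), Hoxc12 (-0.373 to 0.073) and Hoxd12 (-0.123 to 0.32). Hoxb1, Hoxd1, Hoxa13 and Hoxb13 had under 2 CPM in most libraries, and the SE of their fold changes was 0.32, 0.36, 0.39 and 0.55, against a median of 0.13 over members.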
